A study of Homo sapiens and Mus musculus with 12 samples.

Results

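The nuclear-encoded subunits of oxidative phosphorylation were followed in human and mouse cortical organoids in which the human-specific NOTCH2NL gene had been removed or added. Members were taken by gene symbol in the human table: the NDUF subunit families and NDUFAB1, the 4 SDH genes, the UQCR genes and CYC1, the cytochrome c oxidase genes COX4 to COX8, and the ATP5 genes, leaving out named pseudogenes and antisense genes. This gave 89 of 60675 human gene identifiers, of which 38 fell to complex I, 4 to complex II, 10 to complex III, 17 to complex IV and 20 to complex V. By gene description, 84 of them had a counterpart among 47729 mouse identifiers. The symbols do not all denote subunits. ATP5J2LP is a processed pseudogene in GENCODE 29, ATP5J2-PTCD1 is a read-through transcript, ATP5S and ATP5SL are now named DMAC2L and DMAC2 and are not parts of the enzyme, COX7A2L is a supercomplex factor, and NDUFA4 is now counted as a subunit of complex IV, although its symbol placed it with complex I here.

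The human KO organoids were made from the H9 embryonic stem cell line, an established line, after CRISPR/Cas9 removal of NOTCH2NL, and the WT organoids came from an H9 control line generated alongside. The labels give 1 line code to all KO libraries (H9_KO_E5del42) and 1 to all WT libraries (H9_WT_E2del19), so genotype and line cannot be told apart. The labels do not explain the codes. All human organoids were grown with inhibitors that direct stem cells to forebrain and were collected in week 4, on day 28. Mouse organoids were made from stable 46C embryonic stem cell lines that carry either NOTCH2NL-Sh_T197I cDNA (N2NL) or an empty vector (EV) and were collected on day 6. Here too there was 1 line code a group, and the labels do not name the promoter of the vector. Each of the 4 groups had 3 libraries, each from a pool of 5 to 10 human or 16 mouse organoids. Nothing in the labels says that the pools came from separate cultures, so p-values measure the spread between these pools, which may be technical.

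Oxidative phosphorylation passes electrons from NADH and succinate through complexes I to IV to oxygen and uses the proton gradient so formed to drive ATP synthase, complex V. Most subunits are encoded in the nucleus and imported, while a small set is encoded by mitochondrial DNA. Many nuclear subunit promoters carry sites for the nuclear respiratory factor NRF1, for GABP and for estrogen-related receptors, and the coactivator PGC-1alpha (PPARGC1A) acts through such factors. Neural progenitors are known to lean more on glycolysis, and neurons more on oxidative phosphorylation.

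In RefSeq (GRCh38.p14), 68 members had a promoter window, the 250 bases before and 50 after an annotated start, 81 windows in all. The NRF1 core GCATGCGC, read on both strands, was found in 18.5% of these 81 windows, against 3.05% of all 35116 windows and 4.48% of the windows of genes tested in human. The other motifs searched on both strands were AAGATGGC (YY1), AAGGTCA (estrogen-related receptor site), CCGGAAG (GABP and other ETS factors), TGACGTCA (CREB) and GGGCGG (SP1). The YY1 letters stood in 16.0% of member windows, 2.89% of all windows and 4.37% of those of tested genes. For the estrogen-related receptor site the shares were 13.6% of member windows, 3.92% of all and 2.64% of tested. For GABP they were 25.9% of member windows, 10.3% of all and 15.5% of tested, and for CREB 6.17% of member windows, 1.85% of all and 2.79% of tested. The SP1 letters stood in 59.3% of member windows, 45.0% of all and 64.1% of tested, so tested genes lay above the members. Such matches describe letters only and show no binding.

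Promoters with an NRF1 core are printed for the 3 members among the lowest adjusted p-values that have one (NDUFA8, ATP5G2 and ATP5J) and for SDHB, the member whose window holds all 6 motifs. They were chosen after their values were seen. Each runs from 250 bases before the start to 20 after it, on the minus strand, and capitals mark the NRF1 core in either orientation. In NDUFA8 the 2 orientations overlap.
NDUFA8, chr9:122159760-122160029: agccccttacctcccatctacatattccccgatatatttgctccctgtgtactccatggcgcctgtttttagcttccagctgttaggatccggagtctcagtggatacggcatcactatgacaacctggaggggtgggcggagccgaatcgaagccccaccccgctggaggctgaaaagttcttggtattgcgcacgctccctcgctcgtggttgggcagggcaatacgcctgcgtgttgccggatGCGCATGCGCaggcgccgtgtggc
ATP5G2, chr12:53676064-53676333: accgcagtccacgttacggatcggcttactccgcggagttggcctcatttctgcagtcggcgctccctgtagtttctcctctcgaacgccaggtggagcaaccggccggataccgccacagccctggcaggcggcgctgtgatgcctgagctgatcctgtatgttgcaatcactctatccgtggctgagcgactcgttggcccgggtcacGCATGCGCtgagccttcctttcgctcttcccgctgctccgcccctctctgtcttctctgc
ATP5J, chr21:25735035-25735304: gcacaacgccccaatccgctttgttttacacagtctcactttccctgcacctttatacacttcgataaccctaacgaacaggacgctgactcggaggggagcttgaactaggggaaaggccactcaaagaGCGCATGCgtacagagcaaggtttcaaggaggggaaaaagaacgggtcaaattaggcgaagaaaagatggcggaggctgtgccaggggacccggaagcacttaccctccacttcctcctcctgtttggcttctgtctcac
SDHB, chr1:17054013-17054282: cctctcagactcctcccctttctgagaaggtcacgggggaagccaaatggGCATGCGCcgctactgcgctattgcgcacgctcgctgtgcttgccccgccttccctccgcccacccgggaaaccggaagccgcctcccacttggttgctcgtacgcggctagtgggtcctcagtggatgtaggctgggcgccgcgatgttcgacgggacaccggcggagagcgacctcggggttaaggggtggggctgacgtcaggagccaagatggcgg
In the windows printed, the core began 4 bases before the start in NDUFA8, 40 before it in ATP5G2, 120 before it in ATP5J and 200 before it in SDHB. ATP5G2 has 3 annotated windows and ATP5J has 2, and only window 1 of each is printed. Window 2 of ATP5G2 held the core 58 bases before its start. Window 3 of ATP5G2 and window 2 of ATP5J held 0 cores. In SDHB the YY1 letters began 11 bases after the start.

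The libraries held 15381409 to 16382938 counts in human and 16781742 to 20960391 in mouse. NOTCH2NL had 0 counts in all 3 KO libraries, against 4, 5 and 3 in WT 1 to 3. In the authors' deposited table for mouse it stood at 801, 709 and 740 normalized counts in N2NL 1 to 3, against 0 in every EV library. Forebrain progenitor markers, which define the labelled tissue, summed to 3850 to 4630 CPM (counts scaled to library size with TMM factors) in KO and 4570 to 4860 in WT, and to 1900 to 2160 CPM in N2NL and 1980 to 2040 in EV. Choroid plexus markers summed to 1480 to 4370 CPM in KO and 288 to 2250 CPM in WT, with all 6 fold changes above 0 (median log2 1.19) and 0 of 6 passing the test. Neuronal markers summed to 2810 to 3880 CPM in KO and 2950 to 3600 CPM in WT, with 1 of 10 lower (TUBB3). Mesenchyme and pericyte markers summed to 29.1 to 49.5 CPM in KO and 23.0 to 25.1 CPM in WT, ranges that do not overlap, with PDGFRB higher and LUM lower among 7 tested. In mouse, neuronal markers summed to 607 to 676 CPM in N2NL and 699 to 832 CPM in EV, ranges that do not overlap, with 8 of 9 tested below 0 (median log2 -0.23) and 0 passing the test. Pluripotency markers summed to 456 to 497 CPM in N2NL and 412 to 458 CPM in EV, with 0 of 5 passing. The part of any of these markers in the results was not tested. In such bulk samples, fewer cells of a type and less RNA per cell cannot be told apart.

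No subunit gene passed the test in either comparison. Of the 89 human members 79 passed the filter on low counts, and 0 were called higher and 0 lower in KO (edgeR quasi-likelihood test, adjusted p under 0.05 over all genes), in a fit that called 5.5% of 16956 genes. Their median log2 fold change was -0.04, beside -0.005 for all genes tested, with quartiles at -0.12 and 0.08, against -0.21 and 0.19 for all genes. In mouse 80 of 84 were tested, with 0 higher and 0 lower, in a fit that called only 0.012% of 16682 genes. There the median was -0.08, beside -0.01 for all genes.

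For 75 of the 79 human members the 95% interval of the fold change lay wholly within 1.5-fold in either direction, as it did for 50.0% of all genes tested. In mouse this held for 76 of 80 members and for 70.3% of all genes. The human exceptions were NDUFA11, NDUFA13, NDUFV2 and UQCRHL, and the mouse exceptions ATP5G2, ATP5L, COX7A1 and UQCRQ. The median SD of log2 CPM within a group was 0.091 for the human members, against 0.177 over all tested genes, and 0.117 in mouse, against 0.137. Genes were not matched by level there.

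**Figure D1:**
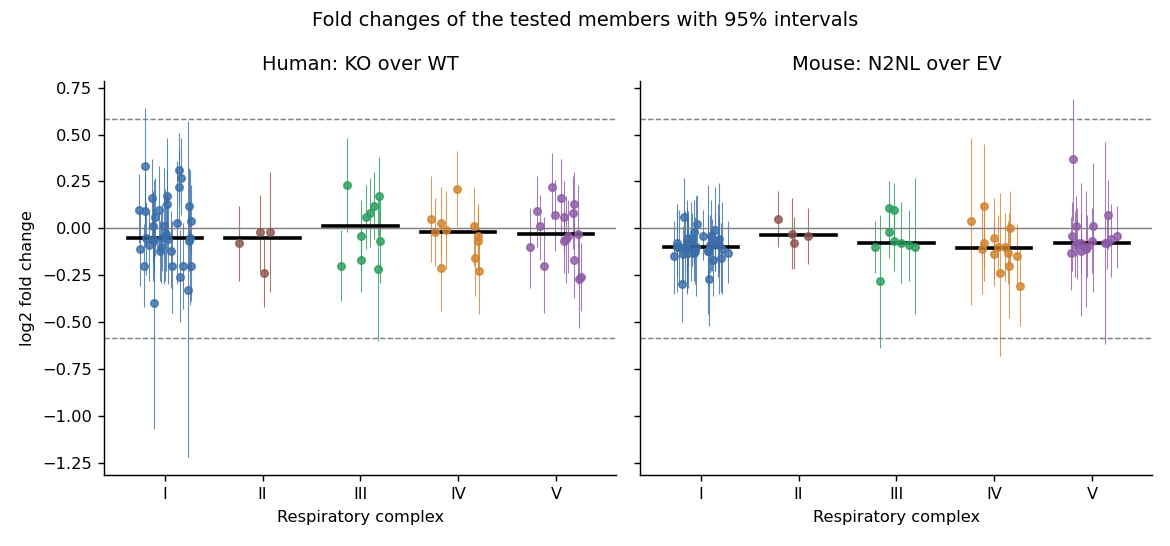
Log2 fold change of each tested member by complex, KO over WT at left and N2NL over EV at right. Points are genes, thin bars their 95% intervals from the edgeR fit, thick black lines the median of a complex, and dashed lines mark 1.5-fold. The medians of the complexes lie between -0.05 and 0.01 in human and between -0.11 and -0.03 in mouse, and most bars stay between the dashed lines.

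At an unadjusted p under 0.05, which 22.8% of all tested human genes reached, stood 12 members, 6 with a fold change above 0 and 6 below. The KO libraries lay wholly above the WT libraries for 11 of 79 members and wholly below for 12, shares of 13.9% and 15.2% beside 14.1% and 14.8% of all tested genes. In mouse 4 members had an unadjusted p under 0.05, where 7.45% of all genes did. The N2NL libraries lay wholly above the EV libraries for 1 of 80 members, beside 7.39% of all genes, and wholly below for 7, beside 5.31%. The human shares of genes without overlap were thus within 1 percentage point of those of all genes. In mouse 68 of 80 members had a fold change below 0, beside 51.7% of all genes, a count over genes that share the same 6 libraries. Neuronal markers were lower in sum in all 3 N2NL libraries of that comparison, at 607 to 676 CPM in N2NL and 699 to 832 CPM in EV. Whether this has a part in the members' fold changes was not tested.

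Complex I takes electrons from NADH. Of its 38 genes 37 were tested in human, with a median log2 fold change of -0.05, 16 above 0 and 21 below. NDUFA8 encodes an accessory subunit with twin CX9C motifs and lies on chromosome 9 (ENSG00000119421; GRCh38, 122144058 to 122159819, minus strand). It had 65.5, 63.4 and 64.4 CPM in KO 1 to 3, against 50.7, 49.1 and 55.9 CPM in WT 1 to 3. The KO libraries all lay above the WT libraries. The log2 fold change was 0.31 ± 0.09 (SE), with a 95% interval of 0.12 to 0.51, and it missed the threshold at an adjusted p of 0.0682 in edgeR, the lowest of any human member. NDUFA8 passed it with library size alone (0.0449) and with an offset for the trend with gene length (0.0354), in a range of 0.0354 to 0.200 over 11 alternatives.

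NDUFB1, a small accessory subunit, showed the same order, with 43.5, 41.1 and 44.2 CPM in KO 1 to 3 and 35.3, 34.5 and 36.6 CPM in WT 1 to 3 (log2 fold change 0.27 ± 0.09, adjusted p = 0.117 in edgeR); it is named for its place among the lowest adjusted p-values, after these were seen. NDUFA11, an accessory membrane subunit, had 22.6, 17.2 and 19.9 CPM in KO and 14.7, 16.0 and 16.9 CPM in WT (0.33 ± 0.14, adjusted p = 0.197). Groups did not overlap in either gene. The fold changes furthest below 0 belonged to 2 genes with few counts. NDUFA13, known also as GRIM-19, had 67, 34 and 72 counts in KO and 82, 89 and 56 in WT, and NDUFV2 had 12, 30 and 21 counts in KO and 35, 24 and 19 in WT. Both overlapped between groups, and their log2 fold changes of -0.40 and -0.33 had intervals of -1.07 to 0.26 and -1.22 to 0.57.

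The core of complex I, the subunits that carry the flavin, the iron-sulfur clusters and the quinone site, gave no call either. NDUFS1, with iron-sulfur clusters, had 95.1, 95.2 and 94.3 CPM in KO and 87.2, 81.8 and 90.3 in WT (log2 fold change 0.13 ± 0.08). NDUFS8, also an iron-sulfur subunit, had 75.7, 77.9 and 65.4 CPM in KO and 75.6, 91.0 and 94.9 in WT (-0.26 ± 0.11, adjusted p = 0.193 in edgeR). The NDUFS1 libraries did not overlap between groups and the NDUFS8 libraries did. Over the 13 genes of the catalytic cores of complexes I, II, III and V the median log2 fold change was -0.07 in human, beside -0.03 for the other 66 tested members, and -0.04 in mouse, beside -0.09 for the other 67.

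Complex II, succinate dehydrogenase, links the citric acid cycle to the chain and has no subunit from mitochondrial DNA. All 4 of its genes had human fold changes below 0 (median -0.05), and 3 of 4 lay at -0.08 or closer to 0. SDHA, the flavoprotein that oxidizes succinate (ENSG00000073578; chromosome 5, 218241 to 256700, plus strand), had 115, 125 and 110 CPM in KO 1 to 3 and 133, 141 and 141 CPM in WT 1 to 3. All KO libraries lay below all WT libraries, with a log2 fold change of -0.24 ± 0.08 and an adjusted p of 0.111 (edgeR). SDHB, the iron-sulfur subunit one of the printed promoters, had 47.1, 52.4 and 47.8 CPM in KO and 51.9, 48.4 and 49.4 CPM in WT, so the groups overlapped (-0.02 ± 0.09). In mouse the SDHA value was 0.05 ± 0.07, with 274, 260 and 243 CPM in N2NL and 242, 248 and 258 in EV.

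Complex III passes electrons from ubiquinol to cytochrome c, and its 10 human genes split evenly, 5 above 0 and 5 below. UQCRH, the acidic hinge protein, had 194, 206 and 189 CPM in KO and 244, 210 and 224 CPM in WT (log2 fold change -0.20 ± 0.09, adjusted p = 0.188 in edgeR). UQCR11, a small membrane subunit, had 26.1, 24.1 and 26.0 CPM in KO and 20.1, 22.2 and 22.7 CPM in WT (0.23 ± 0.11, adjusted p = 0.249). The groups stood apart in both, in opposite directions. UQCRHL, an intronless copy of UQCRH, counted 145, 202 and 216 in KO and 233, 225 and 188 in WT (-0.22 ± 0.17), and how reads were divided between both genes was not tested. UQCRB, which binds ubiquinone, lay at 0.17 ± 0.09 and overlapped between groups. Cytochrome c1 (CYC1) and the Rieske protein (UQCRFS1), which carry a heme and the iron-sulfur cluster of the complex, lay at -0.07 ± 0.10 and 0.12 ± 0.08.

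In complex IV, which reduces oxygen, 11 of 17 genes were tested in human. COX7B, an accessory subunit on the X chromosome, had 122 ± 7.47 CPM in KO and 106 ± 8.75 CPM in WT (SD, n = 3 each), and its libraries did not overlap between groups (log2 fold change 0.21 ± 0.09, adjusted p = 0.208 in edgeR). COX8A, another small subunit, had 112, 108 and 124 CPM in KO and 96.7, 124 and 112 in WT (0.05 ± 0.10). COX7A2L had 155, 141 and 148 CPM in KO and 148, 180 and 193 in WT (-0.23 ± 0.10, adjusted p = 0.227), and WT 1 lay within the KO range. Without WT 1 it passed the threshold at -0.33 (adjusted p = 0.0395, in a range of 0.0395 to 0.549 over 11 alternatives). COX6A1 had 97.4, 119 and 97.5 CPM in KO and 111, 118 and 133 in WT (-0.21 ± 0.11), with overlap.

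Of the 20 ATP synthase genes 17 were tested in human. ATP5G2 (ATP5MC2; ENSG00000135390; chromosome 12, 53632726 to 53677408, minus strand) encodes subunit c, which forms the rotor ring. It had 376, 364 and 367 CPM in KO 1 to 3 and 436, 420 and 469 CPM in WT 1 to 3. The KO libraries all lay below the WT libraries, with a log2 fold change of -0.26 ± 0.08 and an adjusted p of 0.0859 (edgeR), which ran from 0.0724 to 0.249 over 11 alternatives. ATP5J, coupling factor 6 of the stalk (ATP5PF; ENSG00000154723; chromosome 21, 25716503 to 25735673, minus strand), had 95.4, 90.7 and 96.4 CPM in KO and 81.0, 77.1 and 84.1 CPM in WT. Here all KO libraries lay above (0.22 ± 0.08, adjusted p = 0.129).

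ATP5J2, a membrane subunit f gene, had 52.9, 53.4 and 54.3 CPM in KO and 44.9, 52.7 and 46.0 in WT (log2 fold change 0.16 ± 0.10), without overlap by a narrow margin. ATP5S had 34.1, 29.9 and 37.9 CPM in KO and 42.3, 42.8 and 38.1 in WT (-0.27 ± 0.11, adjusted p = 0.185 in edgeR). In the catalytic head, the beta subunit gene ATP5B had 957, 1010 and 966 CPM in KO and 957, 961 and 1100 in WT (-0.04 ± 0.09), and the alpha subunit gene ATP5A1 averaged 717 CPM in KO and 751 CPM in WT (-0.07 ± 0.08).

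**Figure D2:**
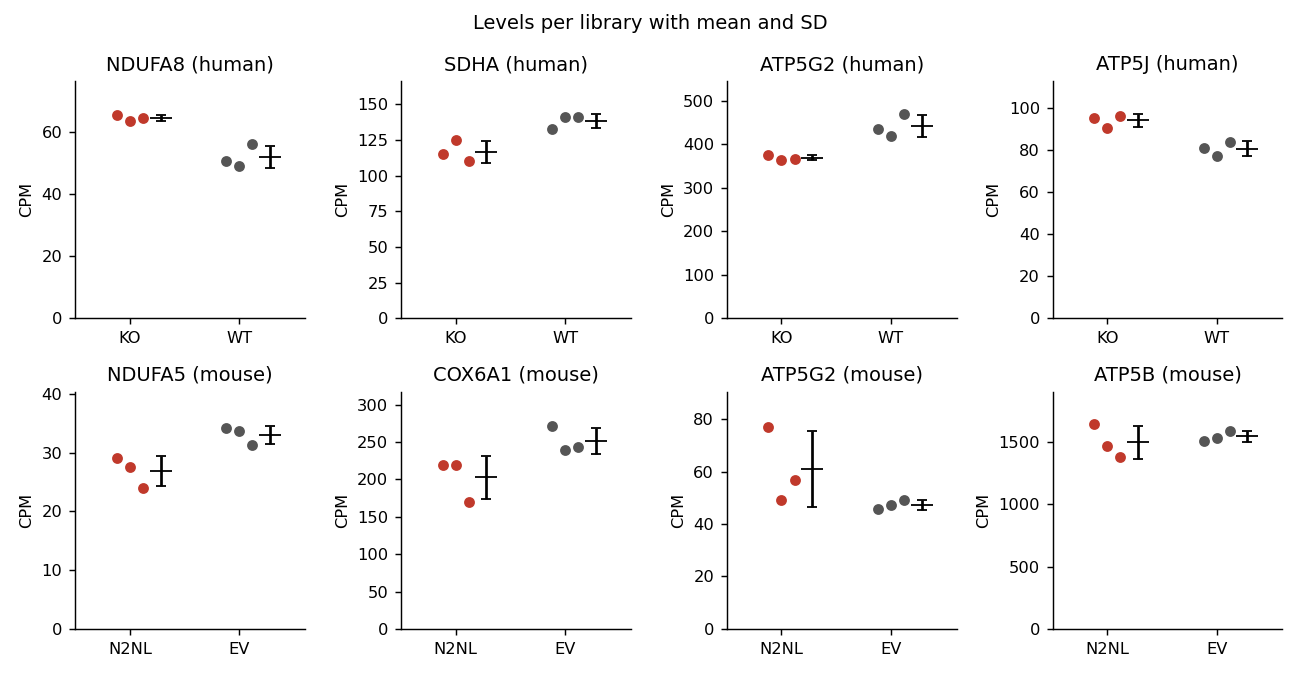
CPM per library of 4 human and 4 mouse members, with axes from 0. Points are libraries, and the bar beside them is the mean with its SD (n = 3). In NDUFA8 and ATP5J all KO points lie above all WT points, in SDHA and ATP5G2 of human all lie below, and ATP5B of mouse overlaps.

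Subunit c is made from 3 nuclear genes that encode the same mature protein with different import sequences. In human, ATP5G2 took 60.6%, 61.1% and 60.8% of the counts on the 3 genes in KO 1 to 3, against 67.7%, 64.8% and 66.6% in WT 1 to 3. The difference of -5.53 percentage points stood beside higher shares of ATP5G1 (12.2% ± 0.700 in KO, 10.5% ± 0.900 in WT) and ATP5G3 (27.0% ± 0.924 in KO, 23.1% ± 0.896 in WT; SD, n = 3 each). For each of the 3 shares the groups did not overlap, at p = 0.1 in a two-sided exact permutation test, the smallest p that 3 against 3 libraries allow, or 0.15 adjusted over the 6 shares compared in both species. The shares make up a whole, so a lower ATP5G2 share raises the others by construction, and they are not separate results. By level, ATP5G1 (log2 fold change 0.08 ± 0.09) and ATP5G3 (0.09 ± 0.09) overlapped between KO and WT. Per exon length the ATP5G2 share was 63.5% to 64.1% in KO and 67.3% to 70.4% in WT. That length merges all annotated exons, 3991 bases for ATP5G2 and 6780 for ATP5G3, and need not match the transcripts expressed.

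By counts, the mouse counterpart of ATP5G3 led instead, with 73.4% ± 3.15 in N2NL and 76.0% ± 1.56 in EV. No mouse gene lengths were at hand, so the mouse shares were not corrected for length. ATP5G2 took 14.2%, 10.8% and 13.1% in N2NL 1 to 3, against 9.24%, 10.3% and 10.4% in EV 1 to 3 (exact permutation p = 0.1, two-sided). Its level was 77.1, 49.2 and 56.7 CPM in N2NL and 45.6, 47.2 and 49.1 CPM in EV, with a log2 fold change of 0.37 ± 0.14 and an adjusted p of 0.630 in edgeR. The lowest N2NL library lay just above the highest EV library, and without N2NL 1 the log2 fold change was 0.16. The human and mouse values of ATP5G2 thus lay on opposite sides of 0, in experiments that differ in species, age and direction of the NOTCH2NL change, and that contrast was not tested.

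**Figure D3:**
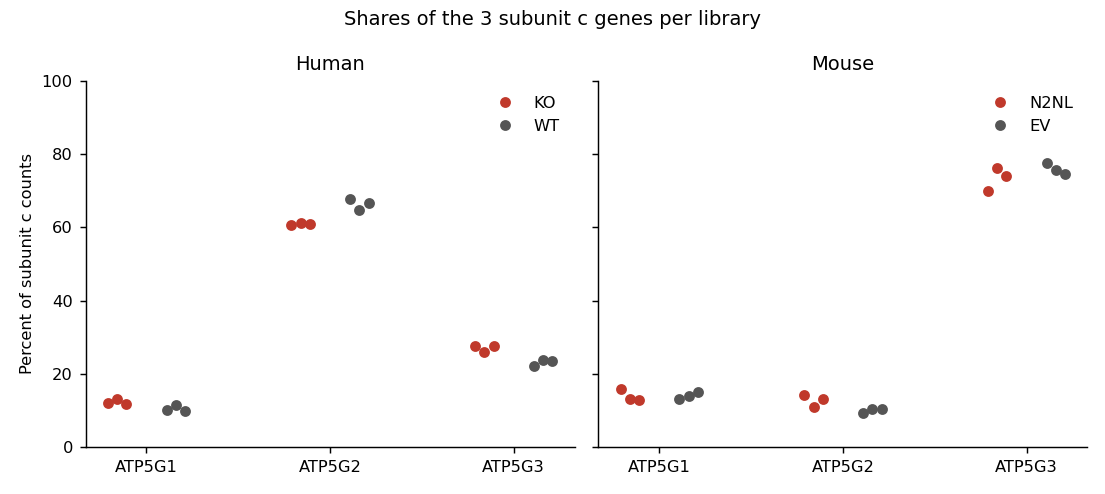
Percent of the counts on the 3 subunit c genes taken by each, per library (3 a group), for human (KO, WT) and mouse (N2NL, EV). ATP5G2 leads in human, with 60.6% to 61.1% in KO below 64.8% to 67.7% in WT, and ATP5G3 leads in mouse. Shares are of counts, not corrected for gene length.

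Several complex IV genes come as a common and a tissue-restricted form. In human the restricted forms were close to absent: COX6A2 and COX7A1, the striated muscle forms, had 0 counts in all 6 libraries, where a count of 0 allows up to 0.199 CPM in a library. COX4I2, the lung form that responds to hypoxia, had 0, 0 and 1 counts in KO and 0, 1 and 0 in WT, and COX7B2 had 0, 1 and 0 in KO and 0 in every WT library. COX8C had 0, 0 and 1 counts in KO and 2, 3 and 1 in WT. COX6B2, a testis form, had 2, 9 and 1 counts in KO and 21, 13 and 9 in WT, too few for the filter, so it was not tested. Beside them, COX4I1 had 427 ± 33.9 CPM in KO and 425 ± 36.1 CPM in WT (SD, n = 3 each). Muscle markers summed to 12.6 to 17 CPM in KO and 11.7 to 14.2 CPM in WT, with TNNT2 and MYOD1 at 0, and testis markers to at most 0.445 CPM.

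Mouse organoids at day 6 held more of the restricted forms. COX6B2 had 904, 794 and 770 counts in N2NL 1 to 3 and 740, 996 and 1026 in EV 1 to 3, which was 29.3% ± 3.76 of the COX6B counts in N2NL and 26.4% ± 3.81 in EV (SD, n = 3 each). Its log2 fold change was 0.00 ± 0.09, and the groups overlapped. COX4I2 had 161, 119 and 118 counts in N2NL and 133, 123 and 151 in EV (0.12 ± 0.16), and COX7A1 91, 70 and 53 in N2NL and 103, 90 and 87 in EV (-0.24 ± 0.20). COX6A2, COX7B2 and COX8C had at most 5 counts in any mouse library.

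Within a library the members spanned a wide range. In TPM, the count per exon length as a share of the library (GENCODE 29 exon lengths), ATP5B stood highest at 1480 ± 53.3 in KO and 1500 ± 63.6 in WT. NDUFS5, an accessory complex I subunit, followed at 1050 ± 82.8 in KO and 1060 ± 44.5 in WT, and COX8A at 794 ± 49.7 in KO and 758 ± 92.0 in WT (SD, n = 3 each). COX8A and the next gene, COX6B1 (747 ± 31.4 in KO, 746 ± 31.2 in WT), did not differ beyond their spread. The lowest tested members, all of complex I, were NDUFA13 at 4.71 ± 1.63 in KO and 6.20 ± 1.42 in WT, NDUFA9 at 5.76 ± 0.315 in KO and 5.06 ± 0.718 in WT, and NDUFV2 at 1.72 ± 0.746 in KO and 2.14 ± 0.753 in WT. The length was that of all annotated exons of a gene merged, 10908 bases for ATP5A1 and 2322 for ATP5B. In WT these genes had 751 and 1000 CPM, but 239 and 1500 TPM. How far the order of genes and complexes rests on annotated length was not tested.

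By complex, the median TPM was 97.2 in KO and 102 in WT for complex I, 35.2 in KO and 39.3 in WT for complex II, and 185 in KO and 196 in WT for complex III. It was 313 in KO and 311 in WT for complex IV, and 144 in KO and 137 in WT for complex V. The rank order of the 79 levels was nearly the same in both groups (Spearman's rho 0.993 across genes, which are not independent and share the same exon lengths). NDUFA7 was about as low as NDUFV2, at 1.66 ± 0.562 TPM in KO and 1.20 ± 0.109 TPM in WT (SD, n = 3 each), with 7, 10 and 15 counts in KO and 8, 8 and 7 in WT, and was not tested. In mouse these genes were not low: NDUFV2 had 2406, 1980 and 2031 counts in N2NL and 2485, 2668 and 2380 in EV, and NDUFA7 3487, 2581 and 2165 in N2NL and 2861, 3218 and 3489 in EV. NDUFS5, by contrast, had only 7, 3 and 5 counts in N2NL and 11, 10 and 8 in EV. Reads aligned to several places, 26.64% to 33.67% of all counted lines in mouse, were left out. Whether this lowered the mouse count of NDUFS5 was not tested. In GENCODE 29 other genes on the same strand cover 28.4% of the exonic bases of NDUFV2, 21.0% of NDUFA13, 32.3% of NDUFA7 and 10.6% of NDUFA9, but also 34.5% of COX8A, which is among the highest, and how reads in such stretches were counted was not tested. Across the 76 genes tested in both species, CPM in WT and in EV organoids had a Spearman's rho of 0.41, on scales that keep gene length.

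**Figure D4:**
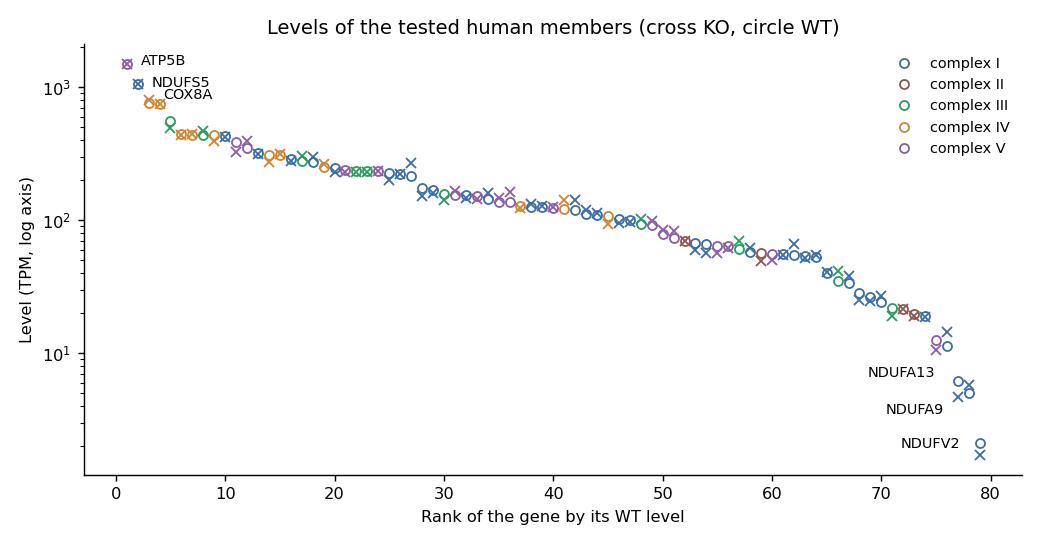
Level per exon length (all annotated exons merged) in TPM (log axis) of the 79 tested human members, ranked by their WT level. Crosses are KO means and circles WT means of 3 libraries, coloured by complex. ATP5B is highest and NDUFV2 lowest, and crosses lie close to circles.

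The members' median level differed between libraries of 1 group. As the median deviation from each gene's mean over the 6 libraries (log2 CPM), KO 1 to 3 stood at -0.024, 0.000 and -0.017, and WT 1 to 3 at -0.052, 0.000 and 0.069. N2NL 1 to 3 stood at 0.059, -0.054 and -0.137, and EV 1 to 3 at 0.087, 0.021 and 0.004. The same value for all tested genes stayed between -0.004 and 0.009 in every library. In human the lowest and the highest library were both WT. In mouse N2NL 3 was lowest and EV 1 highest. Without N2NL 3 the mouse median log2 fold change of the members was -0.038, and without N2NL 1 it was -0.146, with 24 in place of 4 of 80 members at an unadjusted p under 0.05, where 12.5% of all 16786 genes of that fit stood, and still 0 called. Summed over the members, the level was 9813, 10040 and 9824 CPM in KO and 9764, 9980 and 10690 CPM in WT.

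**Figure D5:**
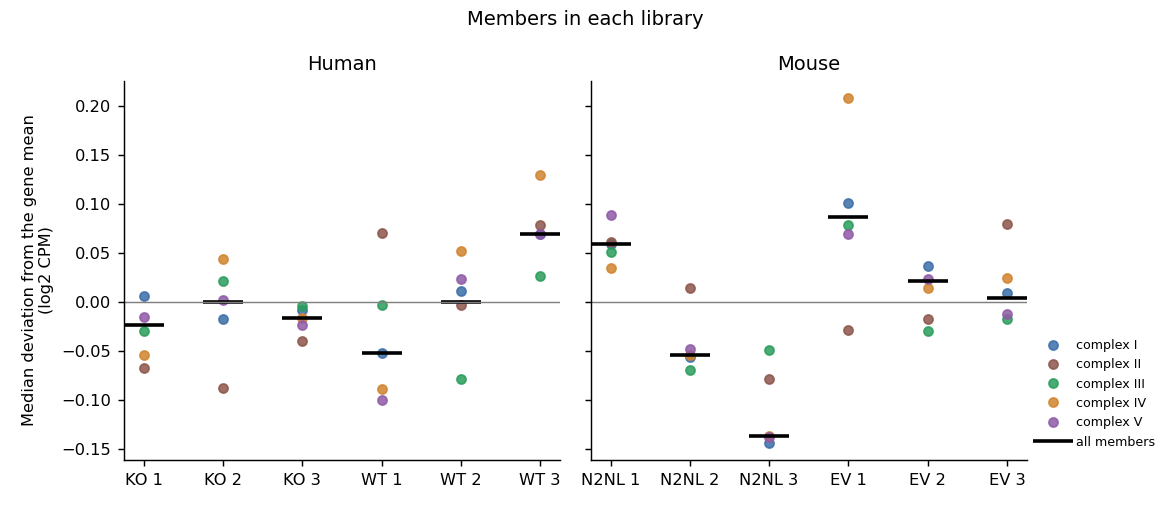
Median deviation of the tested members from each gene's mean over the 6 libraries of its species (log2 CPM), per library, tinted by complex, with a black bar for all members. WT 1 lies lowest (-0.052) and WT 3 highest (0.069) in human, and N2NL 3 lowest (-0.137) and EV 1 highest (0.087) in mouse.

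In the mouse comparison the lowest adjusted p was that of COX6A1, the common form of an accessory complex IV subunit. It had 219, 219 and 170 CPM in N2NL 1 to 3 and 271, 240 and 243 CPM in EV 1 to 3, all N2NL libraries lying below, with a log2 fold change of -0.31 ± 0.10 and an adjusted p of 0.471 (edgeR). With no filter on low counts COX6A1 (adjusted p = 0.0283) and ATP5G2 (0.0146) passed the threshold, in ranges of 0.0283 to 1.00 and 0.0146 to 1.00 over 10 alternatives. In the authors' deposited table COX6A1 had the lowest adjusted p of the mouse members, 0.0558, and 0 members passed there in either species. NDUFA5, an accessory subunit of complex I, had 29, 27.6 and 24.0 CPM in N2NL and 34.2, 33.6 and 31.3 CPM in EV, without overlap (-0.30 ± 0.10, adjusted p = 0.486). NDUFB7, another twin CX9C subunit, had 71.4, 72.6 and 51.4 CPM in N2NL and 78.9, 75.2 and 81.2 in EV (-0.27 ± 0.11).

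In complex III of mouse, 2 genes lay above 0. UQCRC1, a core protein, had 231, 228 and 205 CPM in N2NL and 207, 203 and 208 in EV (log2 fold change 0.11 ± 0.07), and CYC1 168, 178 and 158 in N2NL and 160, 151 and 160 in EV (0.10 ± 0.07). UQCRQ, a small subunit, had 63.1, 54.4 and 49.5 CPM in N2NL and 85.1, 57.8 and 60.9 in EV (-0.28 ± 0.15), where EV 1 stood above the rest. No complex III gene passed the test. In complex V, ATP5D lay at 0.07 ± 0.09, ATP5J2 at -0.13 ± 0.09 and ATP5E at -0.12 ± 0.15. The complex medians were -0.10, -0.03, -0.08, -0.11 and -0.08 for complexes I to V.

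Genes around the chain were read from lists chosen for this pathway, in the human fit that called 5.5% of all genes. Assembly factors, which build the complexes, gave 0 calls in human for complex I (18 tested, median log2 fold change 0.01), complexes II and III (10, -0.05), complex IV (26, 0.07) and complex V (5, -0.03). The 23 genes of electron and ATP carriers gave 0 calls (median -0.05), and so did the 13 subunits encoded by mitochondrial DNA (median 0.09, 11 above 0). Among these MT-CYB, cytochrome b of complex III, came closest, at 0.37 ± 0.10 with an adjusted p of 0.0622 in edgeR. Summed, those 13 genes gave 43600 to 47500 CPM in KO and 38200 to 46400 CPM in WT, ranges that overlap.

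Among 20 regulators of mitochondrial gene expression 1 rose and 0 fell in KO, a share close to that of all genes. This was PPARGC1A, with 14.4, 16.6 and 13.9 CPM in KO 1 to 3 and 7.13, 7.37 and 5.57 CPM in WT 1 to 3, a log2 fold change of 1.16 ± 0.17 (edgeR adjusted p = 0.00523), called under all 11 alternatives. Factors it is known to work with did not pass the test: NRF1 lay at 0.23 ± 0.12, ESRRA at 0.16 ± 0.19 and GABPA at 0.03 ± 0.12. Of 26 genes of the citric acid cycle and pyruvate dehydrogenase, 1 rose and 2 fell. MPC1, a subunit of the mitochondrial pyruvate carrier, rose to 39.7, 37.9 and 37.9 CPM in KO, against 24.1, 27.8 and 26.9 CPM in WT (0.55 ± 0.10, adjusted p = 0.0156; 0.0772 at most over the alternatives, not called without WT 3 or without KO 1).

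PDK1, the kinase that inhibits pyruvate dehydrogenase and responds to hypoxia, fell to 16.8, 16.6 and 14.3 CPM in KO, against 32.9, 26.4 and 33.2 CPM in WT (log2 fold change -0.96 ± 0.13, edgeR adjusted p = 0.00438), called under all 11 alternatives. SUCLG2, a succinate-CoA ligase subunit, was at -0.52 ± 0.13 (adjusted p = 0.0448), a call lost with library size alone, with the replicate number as a block, and without any one of WT 2, WT 3, KO 1, KO 2 or KO 3. Of 21 glycolysis genes 6 fell and 0 rose (median -0.23), among them ALDOC at -1.86 ± 0.15 and ENO2 at -0.69 ± 0.08. ALDOC had 10.7, 8.52 and 9.79 CPM in KO and 36.2, 28.9 and 40.2 in WT, without overlap. The other 4 were SLC16A3, PFKP, TPI1 and LDHA, of which the last 3 were not called without WT 3, without KO 1 or without KO 3. PFKP also lost its call without WT 2, TPI1 without KO 2, and LDHA without WT 1 or WT 2. TPI1 and LDHA also lost it with the block. Of the 7 tested hypoxia-responsive genes PDK1 and LDHA fell. In mouse 0 genes of these 10 lists were called, and PPARGC1A stood at 0.349, 0.654 and 0.651 CPM in N2NL and 1.03, 0.474 and 0.489 in EV.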

How the data were processed

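Polyadenylated RNA was sequenced from strand-specific libraries, per the labels' protocols. The authors deposited raw read counts per Ensembl gene, which were tested, and tables of their own comparison. Per the file headers these hold normalized values per library (a score, not tested here), p-values and, on the log2 scale, standard errors and in human fold changes. Tools in the submitters' processing notes are Bowtie2 2.3.3.1, DESeq2 2.11.39, HTSeq 0.6.1p1, STAR 2.4.0 and Trimmomatic 0.36, with builds GRCh38 and GRCm38. No source used here states whether the counter used strand, so overlapping genes are uncertain.

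Members and lists were chosen with earlier results of these data known. Each species was fitted apart over the genes kept by filterByExpr (16956 human, 16682 mouse) with edgeR 4.0.16 in R 4.3.3, using TMM factors, the robust quasi-likelihood test and Benjamini-Hochberg adjustment. The fits were first run on simulated data with the same dispersion for all genes, which checks the code and not the spread of these data. The ± of a fold change is its standard error. CPM uses TMM-scaled library sizes, and the spread between replicates log2(CPM + 0.5). TPM was computed from the counts with GENCODE 29 exon lengths, all annotated exons of a gene merged. A floor of 3 counts, at most 0.199 CPM in a human library, covers counting error only. Counter summary lines in mouse, among them 26.64% to 33.67% of all counted lines for reads aligned to several places, were left out.

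Named are the 2 highest and 2 lowest fold changes of each complex, the 3 highest and 3 lowest levels, isoform sets, core subunits and called list genes. Promoters were planned for called members; with none called, those printed were chosen afterwards. Alternatives were library size alone, DESeq2 1.42.0, no filter, the replicate number as a block, an offset for gene length (human only) and each library left out. In human, UQCRHL and the UQCR, COX and ATP5 members with named copies were also left out once.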

Additional observations from a re-analysis of the deposited data

How the results depend on the processing

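With library size alone 1 human member was called (NDUFA8) in place of 0, as with the gene length offset (1, NDUFA8). Leaving out 1 library gave 0 to 1 called (COX7A2L, without WT 1). In mouse no filter gave 2 (COX6A1 and ATP5G2) in place of 0, and every other alternative gave 0. The human median log2 fold change of -0.035 ranged over -0.065 to 0.025 with 1 library left out, and was above 0 only without WT 3 among those fits and, at 0.001, with the length offset. It was -0.044 over the 54 members left after taking out UQCRHL and the UQCR, COX and ATP5 genes with named copies. Copies of NDUF and SDH genes and of CYC1 were not searched, so any such members with copies stayed in. Called genes of the pathway lists in human numbered 10, against 16 with no filter and 5 to 12 with 1 library left out. In mouse they numbered 0 under every alternative. The cause was not tested. Over all genes, 932 human genes were called, against 2155 with no filter and 224 (without WT 3) to 1440 (without WT 1) with 1 library left out. Of mouse genes 2 were called, against 26 with DESeq2, 117 with no filter, 21 with the block and 0 to 17 (without EV 1) with 1 library left out. Of 787 values of named members under alternatives, 782 stayed on their side of the threshold and 5 passed it. The length offset was not run in mouse, which had no annotation here.

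The replicate number was used as a block only here, since the labels do not say that it pairs the libraries. Deviations of same-numbered libraries correlated at 0.216, -0.113 and 0.126 in human and at 0.143, 0.016 and -0.005 in mouse. Differently numbered human libraries ranged from -0.331 to 0.277. With 3 libraries a group such values cannot exclude pairing. With the block 0 members were called in either species, the median was -0.033 in human and -0.085 in mouse, and 7 human and 0 mouse list genes were called. Few counts limit NDUFV2 and NDUFA13, with 12 to 89 a library, and the 10 human and 4 mouse members that were not tested.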

Other observations

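Named pseudogene copies, which the choice by symbol left out, numbered 92 for 24 of the members, and 44 of them had at least 1 count. Together the copies found held 206, 276 and 286 counts in KO 1 to 3, which was 0.136% to 0.178% of the counts of all members. In WT 1 to 3 they held 280, 328 and 307 counts, or 0.186% to 0.200%. The counts overlapped between groups and the shares did not, a contrast that was not tested. The copies of COX6A1 reached 2.98% of its own counts in KO and 2.97% in WT, and those of ATP5E 1.91% in KO and 1.96% in WT.

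Of the 76 members tested in both species, 36 had fold changes below 0 in both and 2 above 0 in both. Another 8 were below 0 in human only and 30 in mouse only. Most members thus lay below 0 in mouse, whichever side of 0 they took in human. The count of 36 therefore does not by itself show a shared direction, and a link between the species was not tested. In the authors' deposited tables, of the members 0 passed an adjusted p of 0.05 in either species, where 1348 human and 148 mouse genes did.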
